A study of Mus musculus with 8 samples.

Results

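Among the open chromatin regions found in every library of this experiment, 9988 lay more than 50 kb from any protein-coding gene, and they are described here. They were chosen by measured values, the presence of a peak in all 8 lists, so that presence is not a finding about them. Peaks of the 8 deposited lists on chromosomes 1 to 19 were merged where they shared at least 1 bp, which gave 186387 regions. Of these, 68278 held a peak in all 8 lists and are called constitutive, and the 9988 distant ones (14.6% of them) are called far regions. The other constitutive regions served for comparison and fell into 3 classes. In these, 13762 lay within 1 kb of the start or end of a protein-coding gene (gene-end regions), 30932 lay elsewhere inside such genes (gene-body regions), and 13596 lay outside genes but within 50 kb (near regions).

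The lists come from ATAC-seq, in which a transposase cuts accessible DNA, on retinal ganglion cells (RGCs), the neurons whose axons form the optic nerve. Adult C57BL/6J mice received AAV2 in the vitreous that carried GFP (3 samples), Ezh2 (3 samples) or Ezh2-Y726D (2 samples), the optic nerve of every group was crushed 2 weeks later, and 50000 sorted cells went into each library 3 days after the crush. Ezh2 is the enzyme of Polycomb repressive complex 2 that methylates histone H3 at lysine 27 at silenced genes, and Ezh2-Y726D is its catalytically dead form. The labels do not say how many animals gave a sample, so p-values measure only the spread between these samples.

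Open chromatin far from genes includes enhancers, which act over long distances on genes in the same chromosomal domain, sites of the insulator protein CTCF, and promoters of non-coding RNAs. Genes of development and of the nervous system are often flanked by long gene-poor stretches that hold many such elements. A region's nearest gene is given below as an address, not as its target.

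The lists held 112939 to 135895 peaks. Peaks stood within 1 kb of an end of 9 or 10 of 10 RGC marker genes and of 8 to 10 of 10 rod genes in every list. Of 10 T cell genes, 9 or 10 had such a peak in the GFP and Ezh2 lists and 4 in each Ezh2-Y726D list, and of 10 microglia and macrophage genes 4 to 8 had one in the GFP and Ezh2 lists and 2 in each Ezh2-Y726D list. The sort kept cells with CD90.2 on their surface, a protein of RGCs that T cells also carry. The part of these markers in the differences between Ezh2-Y726D and the other groups was not tested.

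In 12 far regions lay a microRNA with a sequence in the RefSeq table (14 genes, 26 mature sequences). Of these regions, 7 held copies of miR-344, a microRNA family in a gene-poor stretch of chromosome 7 beside the imprinted gene Ndn, and others held miR-9, miR-137 and miR-129, which are abundant in neurons. The mature sequences of the 5p arms of miR-344, of miR-344i and of 1 arm of each neuronal microRNA are shown because they name the regions described below and show which copies share a seed. They are from RefSeq on GRCm38.p6, written 5′ to 3′, with the seed (bases 2 to 8) in capitals.
mmu-miR-344-5p: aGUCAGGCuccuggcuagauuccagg
mmu-miR-344b-5p: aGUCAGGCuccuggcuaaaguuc
mmu-miR-344d-3-5p: aGUCAGGCuagugguuauacucc
mmu-miR-344g-5p: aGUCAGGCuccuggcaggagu
mmu-miR-344f-5p: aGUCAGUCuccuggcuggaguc
mmu-miR-344i: aAGUCAGGcuccuggcugga
mmu-miR-9-5p: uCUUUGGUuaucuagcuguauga
mmu-miR-137-3p: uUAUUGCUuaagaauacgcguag
mmu-miR-129-5p: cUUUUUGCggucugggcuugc

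The seed GUCAGGC was shared by 5 of the mature sequences, from 5 far regions. The seed of miR-344f-5p was GUCAGUC and that of miR-344i AGUCAGG. Nearly identical copies such as Mir344 and Mir344-2, which give the same mature sequences, can share reads, so values over single copies are uncertain.

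Promoter windows of non-coding genes were the other annotated sequences in the far regions. RefSeq windows that run from 250 bases before to 50 bases after a gene's start were touched by 316 far regions (3.16%), and 69.2% of the 370 windows touched lay wholly inside a region, in 224 regions. The windows below were chosen among far regions with a window. They belong to the called ones that differed most between groups, in 4 of the 6 directions compared, and to the strongest one. They are given on GRCm38.p6 and on the gene's strand, in lower case with matches to the searched motifs in capitals. Gm34684 is at chr17:9726014-9726313 (minus strand), Gm38791 at chr6:37714405-37714704 (plus), 1700019J19Rik at chr9:14089827-14090126 (plus) and BC002059 at chr17:16951286-16951585 (plus).
Gm34684: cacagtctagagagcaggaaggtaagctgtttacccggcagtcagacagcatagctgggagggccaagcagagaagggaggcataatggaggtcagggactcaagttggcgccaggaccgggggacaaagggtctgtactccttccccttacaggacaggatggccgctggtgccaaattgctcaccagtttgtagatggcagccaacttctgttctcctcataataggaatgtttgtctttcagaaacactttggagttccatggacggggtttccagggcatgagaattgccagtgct
Gm38791: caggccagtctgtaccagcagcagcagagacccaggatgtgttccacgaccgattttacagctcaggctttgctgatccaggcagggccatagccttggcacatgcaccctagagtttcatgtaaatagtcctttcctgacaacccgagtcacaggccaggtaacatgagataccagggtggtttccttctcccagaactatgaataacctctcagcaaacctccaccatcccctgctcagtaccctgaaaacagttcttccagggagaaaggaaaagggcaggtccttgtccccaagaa
1700019J19Rik: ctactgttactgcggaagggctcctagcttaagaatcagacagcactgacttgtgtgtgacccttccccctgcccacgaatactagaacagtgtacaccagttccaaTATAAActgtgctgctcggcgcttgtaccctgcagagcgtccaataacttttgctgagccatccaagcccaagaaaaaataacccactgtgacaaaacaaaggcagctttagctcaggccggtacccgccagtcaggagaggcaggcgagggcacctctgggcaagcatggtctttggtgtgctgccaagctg
BC002059: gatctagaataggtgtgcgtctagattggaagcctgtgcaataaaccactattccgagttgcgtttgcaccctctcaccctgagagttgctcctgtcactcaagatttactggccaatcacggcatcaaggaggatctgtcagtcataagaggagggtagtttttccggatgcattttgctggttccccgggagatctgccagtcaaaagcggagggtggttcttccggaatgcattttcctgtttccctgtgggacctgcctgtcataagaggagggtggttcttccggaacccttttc

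On both strands, 7 motifs were searched in the windows wholly inside far regions and in all 32817 windows of the table. TGANTCA, the letters of AP-1 sites, stood in 10.5% of the windows inside far regions and in 7.81% of all windows. TAATTA, a homeodomain core, stood in 7.81% and 5.30%, TAATCC, which OTX2 and CRX bind, in 10.2% and 7.06%, and the E-box CAGCTG in 21.9% and 16.3%. GGGCGG, the GC box, was in 21.5% against 35.6%. TGACGTCA, the CRE, was in 1.17% against 1.79%, and TATAAA, the TATA box, in 12.1% against 13.6%. TAATTA and TAATCC start with the same 4 letters, and no difference between the 2 sets of windows was tested. The median window inside a far region was 51.7% G and C with 6 CG pairs, and the median of all windows 52.7% with 7. The window of 1700019J19Rik held TATAAA once, and those of Gm34684, Gm38791 and BC002059 none of the letters searched.

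By fold enrichment, far regions were weaker than those at gene ends and stronger than those in gene bodies. Strength was measured as the percentile of a peak's fold enrichment (its pileup over local background, from the deposited lists) within its own list, so that 100 marks the highest fold. The median percentile of far regions was 67.6, 66.8 and 74.0 in the GFP lists, 68.5, 70.6 and 72.3 in the Ezh2 lists, and 73.9 and 74.7 for Ezh2-Y726D. Averaged over lists it was 71.0 ± 3.13 (SD, n = 8), against 85.2 ± 0.612 at gene ends and 61.2 ± 1.88 in gene bodies. Far regions minus gene ends came to −14.1 percentile points on average, below 0 in 8 of 8 lists, and far regions minus gene bodies to 9.80 points, above 0 in 8 of 8. Both differences had an adjusted p = 0.0141 (two-sided exact sign-flip test over lists, adjusted over 9 tests), and the unadjusted p of 0.00781 is the smallest that 8 lists allow. Ranked by −log10 p in place of fold, the difference from gene bodies was 1.09 points (adjusted p = 0.293, exact test) and that from gene ends −27.9 points. All classes passed the same requirement of a peak in every list, but not to the same degree. It was met by 29.4% of the merged regions more than 50 kb from genes, 32.3% in gene bodies and 74.25% at gene ends. The part of this requirement in the percentiles and in their differences was not tested.

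**Figure D1:**
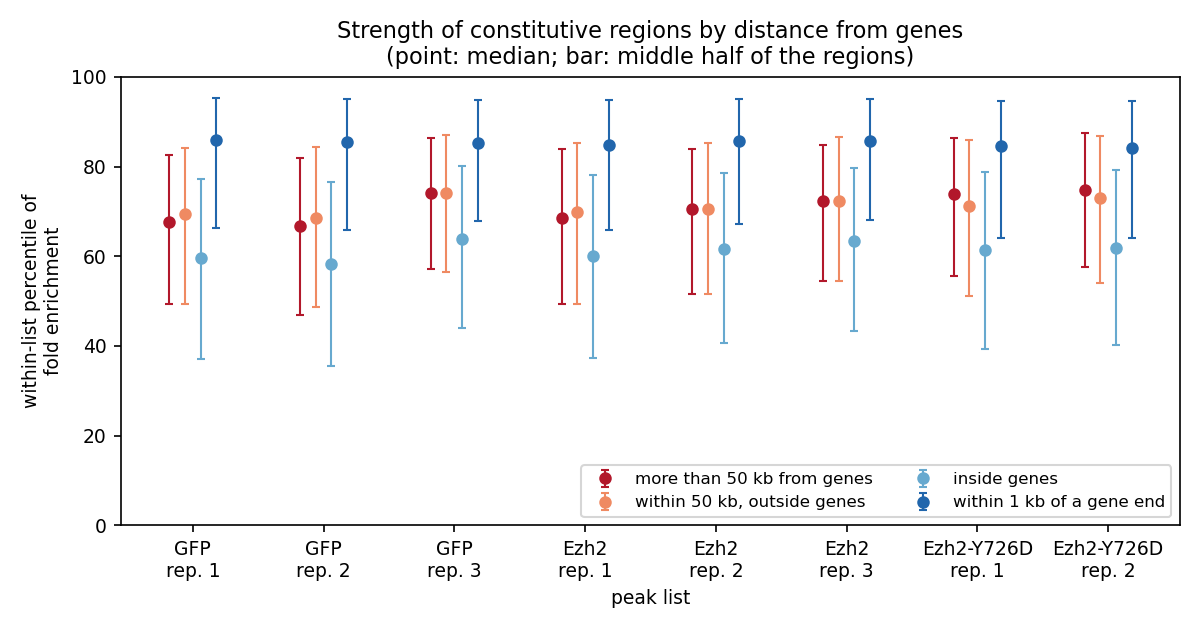
Within-list percentile of fold enrichment (vertical axis, 0 to 100) of constitutive regions in each of the 8 peak lists, by distance from protein-coding genes. Points are medians over regions and bars run from the 25th to the 75th percentile of regions. In every list the median of far regions lies between those of gene bodies and gene ends.

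The far class and its closest neighbour on the map, the near regions, could not be told apart in strength. The mean difference over lists was −0.0806 points (SD 1.67, n = 8; exact sign-flip p = 0.875). The sign depended on the list, with far regions above near ones in both Ezh2-Y726D lists, by up to 2.76 points, and at or below them in the other 6. The median fold itself was 6.42 ± 0.436 (SD, n = 8) in far regions, 8.21 ± 0.290 at gene ends and 5.60 ± 0.202 in gene bodies.

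A small part of the far regions was very strong. The median percentile over lists was above 90 in 1212 far regions (12.1%), against 15.4% of near regions, 39.2% at gene ends and 7.68% in gene bodies. All 8 lists were above 90 in 382 far regions. At the other end, 48 far regions (0.481%) had a median percentile under 10, the smallest share of the 4 classes.

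The strongest far region was at chr3:5860253-5860910, 282 kb from Pex2, a gene of peroxisome assembly. Its fold was 23.5, 22.4 and 22.4 in the GFP lists, 23.0, 23.3 and 23.0 in the Ezh2 lists, and 22.7 and 23.3 for Ezh2-Y726D, so the groups overlapped. Second came chr11:109011562-109012207, 60.8 kb from Axin2, a feedback inhibitor of Wnt signalling, with folds of 19.9 to 21.0 over the 8 lists. The third, chr17:16950949-16951927, held the promoter window of BC002059 printed above, with folds of 16.8 to 18.6. None of these 3 passed the test in any comparison of groups.

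The next 2 by strength did differ between groups. At chr12:3109785-3110189, 137 kb from Rab10, the folds were 18.9, 18.5 and 16.0 in GFP, 18.3, 20.8 and 16.1 with Ezh2, and 12.7 and 12.6 with Ezh2-Y726D, which did not overlap the others (adjusted p = 0.0114 against GFP and 0.00475 against Ezh2, limma). At chr18:68691969-68692401, between Mc2r and Tcf4, Ezh2-Y726D gave the higher folds, 22.4 and 21.3, against 14.4 to 17.6 in the other lists (adjusted p = 0.0275 for Ezh2 against Ezh2-Y726D and 0.0982 for Ezh2-Y726D against GFP, limma). These regions were 405 and 433 bp wide, and whether their reads map to a single place was not tested.

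Far regions had nearly the same median width as those in gene bodies and were narrower than those at gene ends. The median width of a merged far region was 880 bp (25th to 75th percentile 703 to 1099), against 1312 bp at gene ends, 878 bp in gene bodies and 857 bp in near regions. Taking the peaks of each list, the median width in far regions was 622 ± 48.4 bp (SD, n = 8), and the difference from gene ends averaged −495 bp, below 0 in 8 of 8 lists (adjusted p = 0.0141, exact sign-flip test). The difference from gene bodies averaged −0.0625 bp, with 2 of 8 lists above 0 (adjusted p = 1, exact). Split by width into 4 sets of nearly equal size, the narrowest far regions (290 to 703 bp) had a median percentile of 58.9, the next 69.1, and both wider sets 77.4.

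The widest members were not strong. The first, of 5706 bp at chr17:39843066-39848771 between Esp15 and Esp38, genes of exocrine peptides, overlaps Rn18s-rs5, a sequence related to ribosomal RNA, whose genes are present in many copies. Its folds were 2.00 to 2.13, a median percentile of 0.245. The other 2 were 2940 bp at chr13:29013974-29016913, 60.3 kb from Sox4, a transcription factor of neuronal differentiation, and 2736 bp at chr12:73830013-73832748, 51.8 kb from Prkch, a protein kinase C. Their median percentiles were 44.8 and 50.1.

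Summits of far regions were less fixed between lists than those at gene ends. Between the outermost of the 8 summits lay a median of 154 bp in far regions, 82 bp at gene ends, 128 bp in near regions and 149 bp in gene bodies. In 84.2% of far regions every list had exactly 1 peak.

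Distances from genes were long. The median distance of a far region from the nearest protein-coding gene was 142 kb, 928 far regions lay beyond 500 kb and 196 beyond 1000 kb. Strength showed no steady fall with distance. The median percentile was 71.5 at 50 to 100 kb, 70.4 at 100 to 250 kb, 69.6 at 250 to 500 kb, 70.3 at 500 to 1000 kb and 73.0 beyond. The region farthest from a gene, chr18:28077064-28078416, lay 2187 kb from Pik3c3, the lipid kinase Vps34 of autophagy, in the non-coding gene Gm33860. Its folds were 11.6, 12.54 and 12.2 in GFP, 12.3, 11.1 and 13.8 with Ezh2, and 10.5 and 10.6 with Ezh2-Y726D. Its percentile was 92.5 or higher in every list. The next 2, at chr18:27866794-27867612 and chr18:27836629-27837436 in the same gene-free interval, had median percentiles of 70.2 and 72.2.

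On both sides of the border of 50 kb the strength of single regions varied widely. The 5 constitutive regions just inside it, 50010 to 50066 bp from Ryk, Plet1, F13a1, Galnt2 and Dyrk2, had median percentiles of 87.4, 53.3, 75.2, 58.1 and 82.9. The 5 just outside, 49967 to 49990 bp from Cxcl14, Actbl2, Zfpm2, Prcp and Eif3h, had 51.6, 58.6, 89.4, 95.6 and 49.3.

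Far regions were sparse and partly grouped. The space more than 50 kb from protein-coding genes, counted between the first and last such gene of each chromosome, came to 864 Mb and held 11.6 far regions per Mb, against 24.7 near regions, 32.8 gene-body regions and 184 gene-end regions per Mb of their own space. Another far region lay within 10 kb of 3656 far regions (36.6%). The exact 95% binomial interval, 35.7 to 37.6, treats regions as independent, though neighbours count each other, and measures no spread between samples. Counted in the same way, 49.0% of near, 56.4% of gene-body and 24.2% of gene-end regions had one of their own class within 10 kb. The median gap to the next far region was 16.1 kb.

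Joined across gaps of up to 0.0125 Mb, the far regions formed 7414 chains, of which 5688 were single regions and 172 held 4 or more. The longest, 14 regions in 90.4 kb at chr2:166377149-166467557 between Gm30733 and Prex1, a Rac activator of neutrophils and neurons, had a median percentile of 35.9 (11.4 to 85.6). Next came 10 regions in 52.3 kb at chr2:30670122-30722448 between Cstad and 1700001O22Rik (median 22.0), and 10 in 78.0 kb at chr3:50905647-50983696 between Slc7a11, the cystine transporter, and Noct, a rhythmically expressed phosphatase (median 66.7). All 3 medians were below that of the class, 70.7.

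A chain of low folds, named after its values were seen, lay around the non-coding gene C130071C03Rik, the host of miR-9-2. Its 8 regions spanned 24.9 kb at chr13:83720829-83745739 between Mef2c, a transcription factor of neurons and muscle, and Tmem161b. The median percentile was 2.31, with single regions from 0.0335 to 84.6. The region at the gene's promoter window, chr13:83732227-83732567, was the weakest of all far regions, with folds of 1.79, 1.88 and 1.85 in GFP, 1.69, 1.70 and 1.65 with Ezh2, and 2.10 and 1.93 with Ezh2-Y726D. It was called lower in Ezh2 than in Ezh2-Y726D (−0.945 ± 0.167, SE, adjusted p = 0.00607, limma). The region over miR-9-2 itself had folds of 2.07 to 2.72.

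Intervals between neighbouring protein-coding genes held the far regions unevenly. Of the 1767 intervals with at least 1, 310 held 10 or more and together 50.7% of all far regions. The fullest was the gap of 4511 kb between Celf4, an RNA-binding protein of neurons, and Pik3c3 on chromosome 18, with 56. Between Nr5a2 and Ptprc on chromosome 1 lay 49, between Rps24 and Zmiz1 on chromosome 14 lay 45, between Cd83 and Jarid2 on chromosome 13 lay 42, and between Ythdf3 and Cypt12 on chromosome 3 lay 41, as many as between Zfp608 and Gramd3 on chromosome 18. By length outside the 50 kb margins this was 1.27 per 100 kb in the Celf4 interval and 5.23 per 100 kb in the Rps24 interval. The share of constitutive regions that were far ranged over chromosomes from 8.02% on chromosome 19 to 22.6% on chromosome 13.

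The genes nearest to most far regions were Zfp608 (42 regions), Pik3c3 (37), Ptprc (30), Celf4 (28), Cited2 (27), Cd83 (26), Adgrl2, Cypt12 and Tox3 (25 each) and Usp25 (24). Ptprc encodes CD45, the phosphatase of leukocytes, Cd83 is a surface protein of dendritic and B cells, Cited2 a regulator of the coactivators CBP and p300, and Adgrl2 an adhesion receptor of synapses. Regions around Ptprc had a median percentile of 42.9, the lowest of the 10, and those around Pik3c3 had the highest, 74.7. The median difference around Ptprc, in the normal scores defined below, was −0.352 for Ezh2-Y726D against GFP and 0.410 for Ezh2 against Ezh2-Y726D, and 2 of the 30 regions passed the test in each of these directions, where 4.70% and 7.09% of all regions tested and 5.44% and 8.48% of far regions did. Around Adgrl2, 6 of 25 regions were higher in Ezh2-Y726D than in GFP, where 3.58% of all regions tested and 7.18% of far regions were, and none was lower.

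In the plain medians the groups could not be told apart. The median percentile of far regions averaged 69.5 ± 3.96 (SD, n = 3) in GFP, 70.4 ± 1.91 (n = 3) in Ezh2 and 74.3 ± 0.575 (n = 2) in Ezh2-Y726D. The difference was 0.956 points for Ezh2 against GFP (p = 0.8), 4.81 points for Ezh2-Y726D against GFP (p = 0.3) and −3.85 points for Ezh2 against Ezh2-Y726D (p = 0.2), each by a two-sided exact permutation test whose smallest p is 0.1. Taken relative to the gene ends of the same list, the difference was 5.99 points for Ezh2-Y726D against GFP (p = 0.2, exact) and −4.84 points for Ezh2 against Ezh2-Y726D (p = 0.1, exact). Relative to gene bodies these were 3.71 and −3.81 points (p = 0.1 each, exact), and the Ezh2-Y726D lists did not overlap the others. GFP replicate 3 lay at 74.0, among the Ezh2-Y726D lists, while the other GFP lists were the lowest of all.

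Region by region, a larger share of far regions than of any other class was called in 5 of the 6 directions. Folds were turned into normal scores within each list over all 68278 constitutive regions and tested with limma, and a region counts as called at an adjusted p under 0.05. The difference in normal score is in SDs of that list's ranks. In Ezh2 against GFP, 238 far regions (2.38%) were higher, against 1.61% of all regions tested, and 493 (4.94%) were lower, against 2.86%. In Ezh2-Y726D against GFP, 717 (7.18%) were higher, against 3.58%, and 543 (5.44%) lower, against 4.70%. In Ezh2 against Ezh2-Y726D, 847 (8.48%) were higher, against 7.09%, and 1210 (12.1%) lower, against 7.01%. The exception was the lower direction of Ezh2-Y726D against GFP, where 5.61% of near regions were called.

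**Figure D2:**
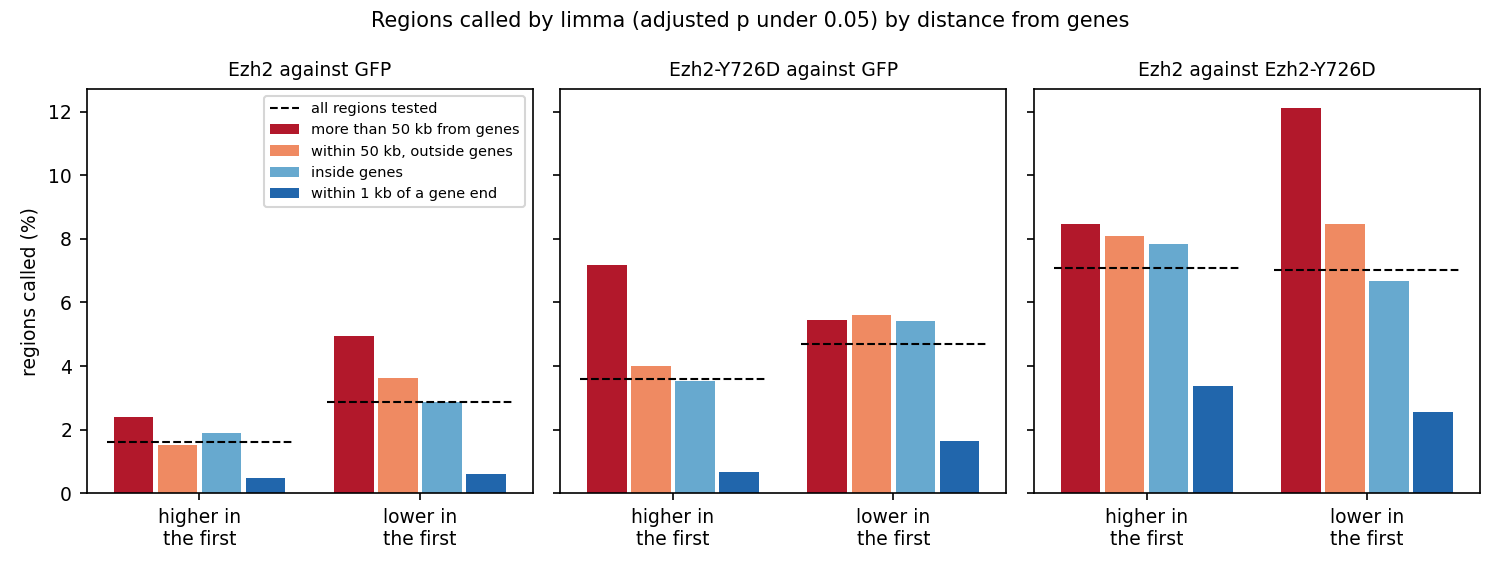
Share of regions called by limma (vertical axis, %) in each class, for 3 comparisons and both directions, with the share over all regions tested as a dashed line. The bars of far regions reach 12.1% among those lower in Ezh2 than in Ezh2-Y726D, and those of gene ends stay at 3.37% or below.

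Gene ends held far fewer calls, from 0.472% (higher in Ezh2 against GFP) to 3.37% (higher in Ezh2 against Ezh2-Y726D). Their normal scores also varied less between samples of a group, with a median SD of 0.164 against 0.302 in far regions. The difference between classes in the share called was not tested.

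Both directions were not equally common. The median difference in normal score of far regions was 0.0467 for Ezh2 against GFP, 0.114 for Ezh2-Y726D against GFP and −0.105 for Ezh2 against Ezh2-Y726D, where gene ends had −0.0328, −0.0966 and 0.0747. The split of calls depended on the setting. Of those in Ezh2-Y726D against GFP, 56.9% were higher, but ranked by −log10 p the split was 597 higher and 752 lower (44.3% higher). Without Ezh2-Y726D replicate 1 or 2 the calls of that comparison came to 292 and 412, of which 35.6% and 36.4% were higher. Without Ezh2-Y726D replicate 2, 54.0% of the calls in Ezh2 against Ezh2-Y726D were higher, against 41.2% with it. In Ezh2 against GFP, the lower calls outnumbered the higher ones in every alternative run, with 18.5% to 37.2% of the calls higher.

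Among far regions, those farther from genes were called higher in Ezh2-Y726D more often. In Ezh2-Y726D against GFP, 5.48% of the 3483 far regions at 50 to 100 kb were called higher, 6.35% at 100 to 250 kb, 8.87% at 250 to 500 kb and 13.2% of the 928 beyond 500 kb. Called lower were 6.26%, 5.09%, 4.85% and 4.96%. In Ezh2 against Ezh2-Y726D the lower calls went from 9.70% to 17.2% over the same steps, while in Ezh2 against GFP the higher calls were 2.73% in the first step and 3.13% in the last, and the lower calls 4.42% and 6.36%. These steps were set after the values were seen. Ranked by −log10 p, the higher calls of Ezh2-Y726D against GFP went from 4.68% to 10.7%, and without Ezh2-Y726D replicate 1 or 2 from 0.636% to 2.31% and from 1.00% to 3.26%.

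**Figure D3:**
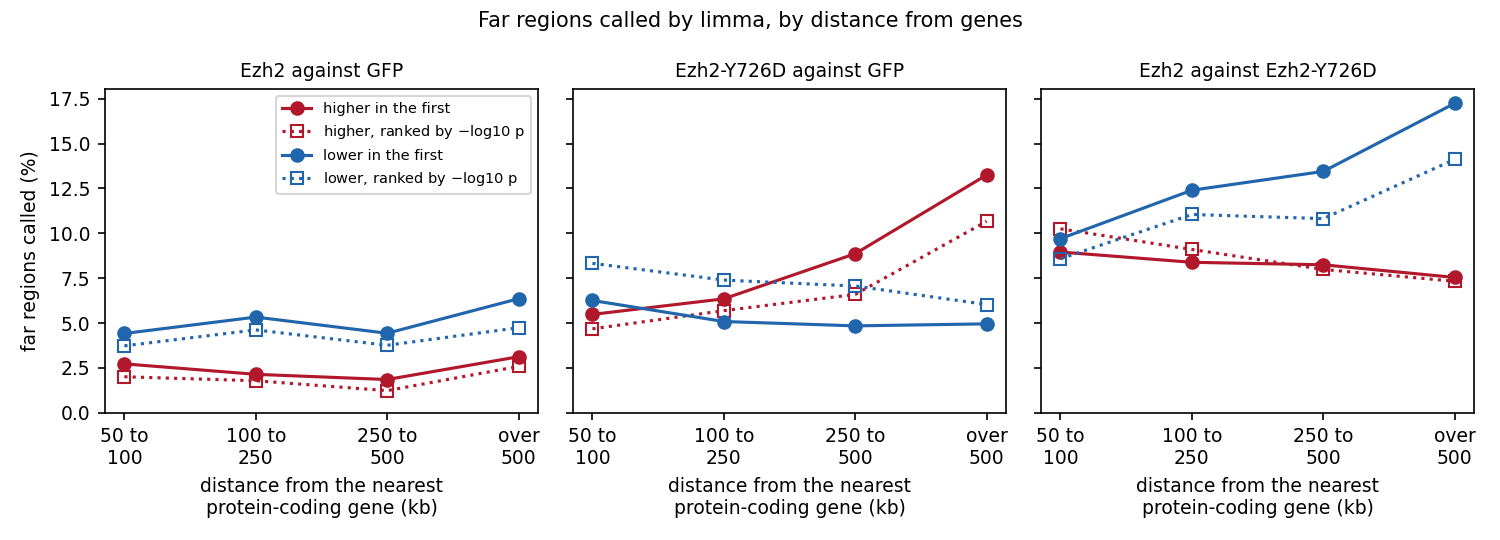
Share of far regions called by limma (vertical axis, %) by distance from the nearest protein-coding gene (horizontal axis, kb), for 3 comparisons. Filled circles rank peaks by fold and open squares by −log10 p, and colours mark the direction. The share higher in Ezh2-Y726D than in GFP reaches 13.2% beyond 500 kb.

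The far regions that differed most between Ezh2 and GFP were lower in all 3 Ezh2 samples. At chr18:8486641-8487642, 558 kb from Wac and between Wac and the Wnt receptor gene Fzd8, folds were 9.18, 8.95 and 9.92 in GFP, 3.18, 3.69 and 3.92 with Ezh2, and 12.7 and 11.9 with Ezh2-Y726D. The Ezh2 lists did not overlap the others. The mean fold of GFP was 2.60 times that of Ezh2, and the normal score differed by −2.41 ± 0.207 (SE, adjusted p = 0.00268, limma) against GFP and by −2.98 ± 0.232 (adjusted p = 4.11e-04) against Ezh2-Y726D.

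A second such region was at chr5:75799719-75800821, between Kit and Kdr, 132 kb from Kdr, the VEGF receptor of endothelial cells. It had folds of 8.24, 9.22 and 10.1 in GFP, 3.18, 3.92 and 3.71 with Ezh2, and 10.3 and 11.4 with Ezh2-Y726D. Again the Ezh2 samples stood apart from the other 5. The difference in normal score was −2.37 ± 0.216 (SE, adjusted p = 0.00423, limma) against GFP and −2.64 ± 0.242 (adjusted p = 5.77e-04) against Ezh2-Y726D.

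The third lay 280 kb from Sox9, the transcription factor of Müller glia, at chr11:112501630-112502326. Folds there were 9.89, 13.8 and 13.3 in GFP, 5.37, 4.62 and 5.01 with Ezh2, and 13.3 and 15.7 with Ezh2-Y726D. In percentiles this is 93.3 or more in GFP and Ezh2-Y726D and 47.3 to 58.1 in Ezh2. The difference was −2.24 ± 0.266 (SE, adjusted p = 0.00593, limma) against GFP and −2.66 ± 0.297 (adjusted p = 0.00107) against Ezh2-Y726D. The same 3 regions were the most lowered in both comparisons, which share the Ezh2 samples.

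Another 3 regions led the other direction, with smaller differences. At chr15:27378558-27379267, 87.4 kb from Ank, a pyrophosphate transporter, folds were 4.71, 4.34 and 4.64 in GFP and 8.30, 8.77 and 10.7 in Ezh2, with 6.74 and 6.62 in Ezh2-Y726D between them (1.76 ± 0.216, SE, adjusted p = 0.00650 for Ezh2 against GFP, limma). At chr1:73724444-73725564, 185 kb from Tns1, a protein of focal adhesions, folds were 3.77, 2.98 and 3.59 in GFP and 5.62, 5.54 and 7.85 in Ezh2 (1.66 ± 0.299, SE, adjusted p = 0.0184, limma). At chr18:47453000-47453698, 81.8 kb from Sema6a, a semaphorin of axon guidance, they were 3.06, 4.07 and 4.22 in GFP and 7.33, 5.77 and 7.85 in Ezh2 (1.64 ± 0.292, SE, adjusted p = 0.0177, limma). In the last 2, both Ezh2-Y726D lists lay above all GFP lists too, and the Tns1 region lost its call without GFP replicate 2 or 3 (adjusted p = 0.0635 and 0.0561) and the Sema6a region without Ezh2 replicate 3 (adjusted p = 0.0521).

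**Figure D4:**
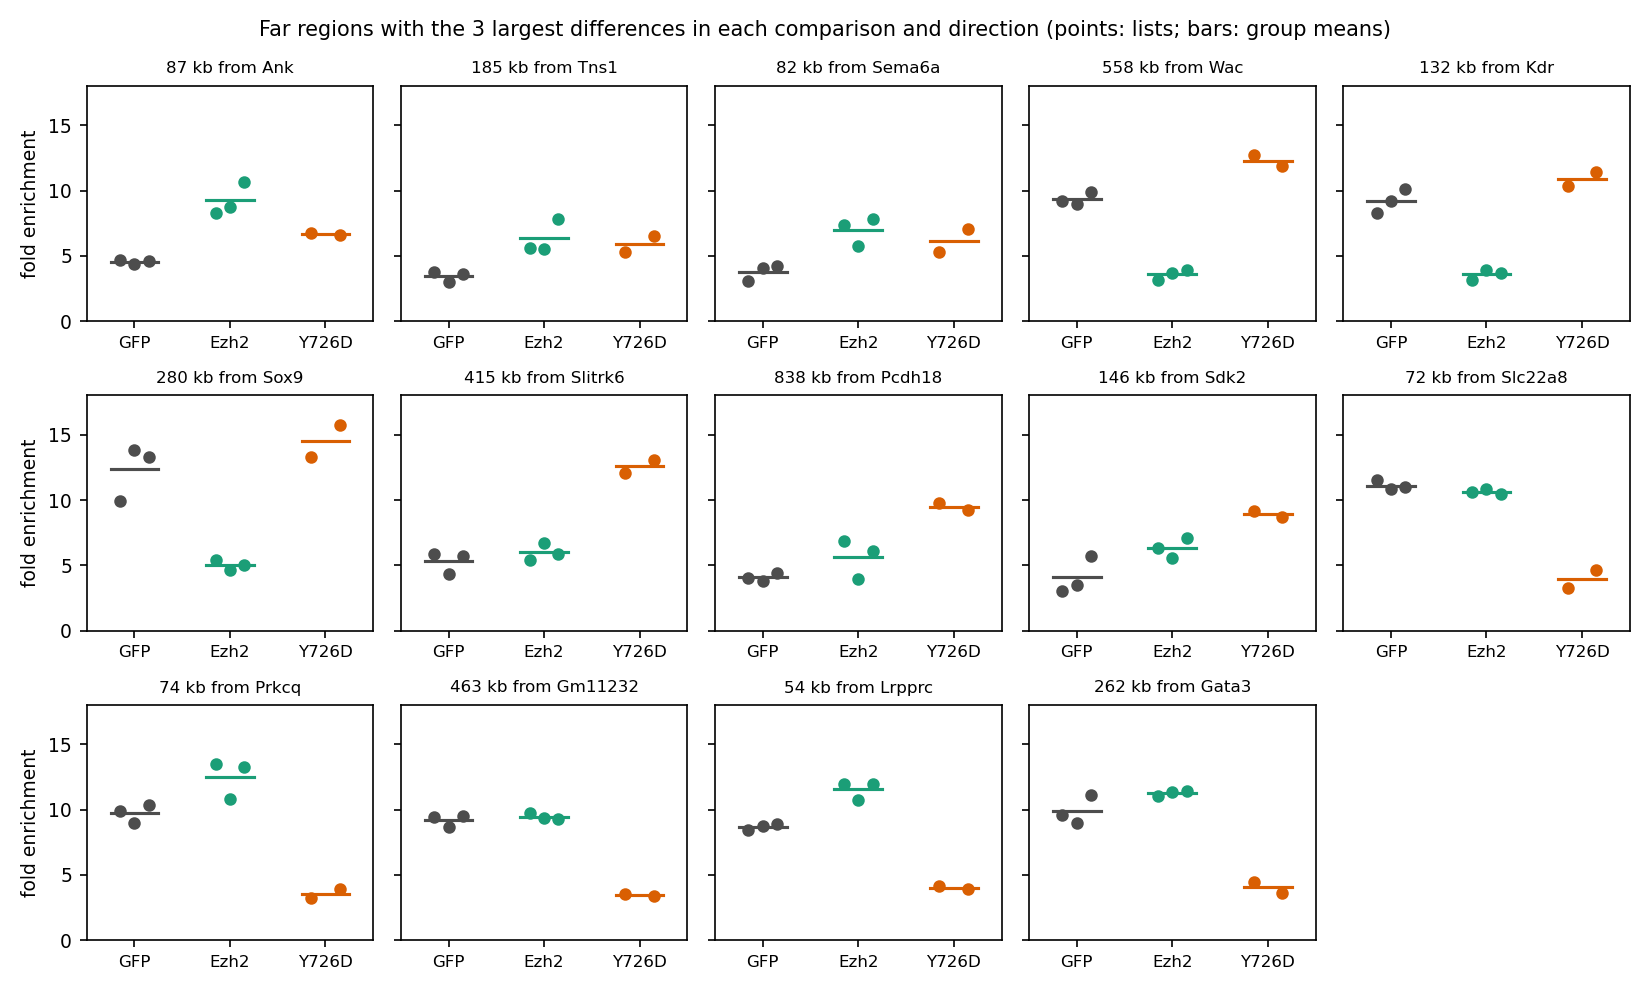
Fold enrichment (vertical axis) of 14 far regions, those with the 3 largest differences in each comparison and direction among called regions whose groups did not overlap, with 1 point per peak list and a bar at each group mean, with the nearest protein-coding gene above each panel. The regions near Wac, Kdr and Sox9 are low in the 3 Ezh2 lists only, and those near Slc22a8, Prkcq, Gm11232, Lrpprc and Gata3 are low in both Ezh2-Y726D lists only.

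Regions low in Ezh2-Y726D alone formed a second pattern. At chr2:11374943-11375642, 73.7 kb from Prkcq, the protein kinase C of T cell receptor signalling, folds were 9.89, 8.95 and 10.3 in GFP, 13.5, 10.8 and 13.3 with Ezh2, and 3.25 and 3.88 with Ezh2-Y726D. It differed by −2.64 ± 0.273 (SE, adjusted p = 0.00224, limma) in Ezh2-Y726D against GFP and by 3.39 ± 0.273 (adjusted p = 4.40e-04) in Ezh2 against Ezh2-Y726D, the largest difference of the named regions. The region at chr2:9593689-9594724, 262 kb from Gata3, a transcription factor of T cells, had folds of 9.59, 8.95 and 11.1 in GFP, 11.03, 11.4 and 11.4 with Ezh2, and 4.43 and 3.64 with Ezh2-Y726D (2.72 ± 0.235, SE, adjusted p = 5.17e-04 for Ezh2 against Ezh2-Y726D, limma).

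The other 3 regions of this pattern had other kinds of gene nearest. At chr17:84844659-84845585, 53.9 kb from Lrpprc, which stabilises mitochondrial mRNA, folds were 8.41 to 8.85 in GFP, 10.8 to 11.9 with Ezh2, and 4.13 and 3.88 with Ezh2-Y726D. That region was also called higher in Ezh2 than in GFP (0.775 ± 0.166, SE, adjusted p = 0.0314, limma). Near Slc22a8, an organic anion transporter, chr19:8517932-8519343 had folds of 10.8 to 11.5 in GFP, 10.5 to 10.8 with Ezh2, and 3.25 and 4.61 with Ezh2-Y726D (−2.76 ± 0.263, SE, adjusted p = 0.00192 against GFP, limma). The region at chr4:71291143-71292319, 463 kb from Gm11232, had folds of 8.68 to 9.50 in GFP, 9.26 to 9.72 in Ezh2 and 3.54 and 3.40 in Ezh2-Y726D (−2.55 ± 0.178, SE, adjusted p = 0.00122, limma). In these regions the Ezh2-Y726D lists lay below every other list. Beside them stand the T cell genes with a peak near an end, 4 of 10 in each Ezh2-Y726D list and 9 or 10 of 10 in the others. For the microglia and macrophage genes these counts were 2 of 10 and 4 to 8 of 10. The part of either marker list in these regions was not tested.

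The 3 regions most raised in Ezh2-Y726D against GFP each had a gene of an adhesion protein nearest. At chr14:110331067-110331923, between Slitrk1 and Slitrk6, which encode synaptic adhesion proteins, folds were 5.89, 4.34 and 5.70 in GFP, 5.37, 6.69 and 5.89 with Ezh2, and 12.1 and 13.1 with Ezh2-Y726D. The difference in normal score was 2.05 ± 0.280 (SE, adjusted p = 0.00423, limma) against GFP. At chr3:48904437-48905089, 838 kb from the protocadherin gene Pcdh18, folds were 4.00, 3.798 and 4.43 in GFP, 6.84, 3.92 and 6.10 with Ezh2, and 9.74 and 9.22 with Ezh2-Y726D (1.95 ± 0.354, SE, adjusted p = 0.0119, limma). At chr11:114212701-114213354, 146 kb from Sdk2, an adhesion protein that sorts retinal synapses into layers, they were 3.06, 3.53 and 5.70 in GFP and 9.15 and 8.73 in Ezh2-Y726D (1.94 ± 0.403, SE, adjusted p = 0.0195, limma). The last 2 lost their call without either Ezh2-Y726D sample (adjusted p = 0.0632 to 0.116), and the Sdk2 region also without GFP replicate 2 (adjusted p = 0.0588).

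Of 63 genes of axon guidance and cell adhesion, 60 were on these chromosomes in the gene table and 47 were nearest to at least 1 of 277 far regions. This is 2.77% of the far regions, where the same genes were nearest to 3.58% of all merged regions more than 50 kb from genes, in however many lists. In Ezh2-Y726D against GFP, 39 of the 277 (14.1%) were called higher, where the class had 7.18% and all regions tested 3.58%, and 17 (6.14%) were called lower, where these had 5.44% and 4.70%. The median difference in normal score was 0.298, against 0.114 in the class. These regions also lay farther from genes, at a median of 381 kb, and 113 of them beyond 500 kb. Without Ezh2-Y726D replicate 1 or 2 the higher calls were 5 and 11, and without GFP replicate 2 they were 20.

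Around single genes of this list the values differed. Cdh11, a cadherin, had the most far regions, 22, of which 3 were called higher and 1 lower in Ezh2-Y726D against GFP. Around Flrt2, a guidance and adhesion protein, 3 of 10 were called higher and none lower, with a median difference of 0.665, and around Pcdh17 3 of 9 (0.778). Around Cdh7 3 of 6 were called higher (0.956) and around Pcdh9 3 of 5 (0.874). Around other genes of the list the lower calls outnumbered the higher ones, though the median differences were positive. Around Pcdh7 1 of 11 was higher and 3 lower (median difference 0.0367). Around Epha7 these were 1 of 12 and 2 (0.0452), and around Cdh20 1 of 14 and 2 (0.377). None of the 13 regions around Tenm3 was called. The class had 7.18% higher and 5.44% lower in this comparison, and all regions tested 3.58% and 4.70%. In Ezh2 against GFP the list had 10 higher and 15 lower (3.61% and 5.42%), where the class had 2.38% and 4.94% and all regions 1.61% and 2.86%. With 1 GFP or Ezh2 sample left out these were 4 to 10 and 4 to 14. In Ezh2 against Ezh2-Y726D 23 were higher and 39 lower (8.30% and 14.1%), where the class had 8.48% and 12.1% and all regions 7.09% and 7.01%, and without Ezh2-Y726D replicate 1 or 2 there were 14 and 18, or 19 and 23.

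Of 76 transcription factors of the retina and RGCs, 48 were nearest to 264 far regions (2.64%). Their median percentile, 70.9, was close to that of the class, 70.7. In Ezh2 against GFP 7 were higher and 19 lower (2.65% and 7.20%), where the class had 2.38% and 4.94% and all regions 1.61% and 2.86%. Leaving out 1 GFP or Ezh2 sample gave 1 to 5 higher and 7 to 17 lower, with 1 and 7 without GFP replicate 2 and 1 and 10 without Ezh2 replicate 3. In Ezh2-Y726D against GFP 14 were higher and 9 lower (5.30% and 3.41%), where the class had 7.18% and 5.44% and all regions 3.58% and 4.70%. Ranked by −log10 p this split turned to 11 higher and 18 lower, without Ezh2-Y726D replicate 1 or 2 to 2 and 4, or 2 and 5, and without GFP replicate 2 to 5 and 10. In Ezh2 against Ezh2-Y726D 19 were higher and 38 lower (7.20% and 14.4%), where the class had 8.48% and 12.1% and all regions 7.09% and 7.01%, and without Ezh2-Y726D replicate 1 or 2 there were 11 and 15, or 11 and 12. Sox4 had the most far regions, 17, followed by Bcl11a (15), Sox2 (14) and Prox1 (12). Lower in Ezh2 than in GFP were 3 of the 11 regions around Sox9, and none around it was higher.

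The 20 genes linked to axon regeneration held 98 far regions (0.981%), nearest to 12 of the genes. In Ezh2 against GFP 7 of the 98 were called higher (7.14%) and none lower, where the class had 2.38% and 4.94% and all regions 1.61% and 2.86%. With 1 GFP or Ezh2 sample left out, 0 to 3 were called higher, with none without Ezh2 replicate 3 and 1 without Ezh2 replicate 1 or GFP replicate 2, and at most 1 lower. Myc had the most, 18, whose median percentiles ran from 33.2 to 96.7, and Gadd45g, Npy and Klf6 had 13, 12 and 10. In Ezh2-Y726D against GFP 7 were higher and 4 lower (7.14% and 4.08%), where the class had 7.18% and 5.44% and all regions 3.58% and 4.70%. Ranked by −log10 p the split turned to 4 higher and 8 lower, without Ezh2-Y726D replicate 1 or 2 it was 2 and 1, or 1 and 1, and without GFP replicate 2 it was 2 and 3. By fold, the 4 lower calls included the single far regions of Atf3 and Fos (differences of −1.15 and −1.45). The higher calls included 2 of 13 regions around Gadd45g and 1 of 7 around Jun, with none lower around either. In Ezh2 against Ezh2-Y726D 14 of the 98 were higher and 11 lower (14.3% and 11.2%). There the class had 8.48% and 12.1% and all regions 7.09% and 7.01%. The regions of Atf3 and Fos were among the higher ones (1.08 and 1.59). Of the marker lists, the RGC genes were nearest to 18 far regions. In Ezh2 against GFP none was higher and 1 lower, where the class had 2.38% and 4.94% and all regions 1.61% and 2.86%. In Ezh2-Y726D against GFP 1 was higher and 2 lower, where the class had 7.18% and 5.44% and all regions 3.58% and 4.70%. In Ezh2 against Ezh2-Y726D 5 were higher (27.8%) and 1 lower, where the class had 8.48% and 12.1% and all regions 7.09% and 7.01%. The T cell genes were nearest to 2 far regions and the microglia and rod genes to none. Of the 2 around T cell genes, 1 was higher in Ezh2-Y726D against GFP, where the class had 7.18% and all regions 3.58%.

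Along the miR-344 cluster, the far regions over its genes had median percentiles above that of the class, 70.7, except the region over Mir344i. The 7 regions over genes of the cluster spanned 360 kb at chr7:61726030-62085782, with gaps of 38.3 to 86.3 kb between them. Their median percentiles ran from 69.5 to 93.0. The other far regions within this span had 67.4, 75.5 and 99.0. The region over Mir344-2 had the highest median, with folds of 9.55, 10.5 and 9.90 in GFP, 11.5, 9.36 and 10.9 with Ezh2, and 9.88 and 10.5 with Ezh2-Y726D. Of the 13 miR-344 genes in the table on this stretch, those not in a far region had a peak in 5 lists (Mir344c), in 4 (Mir344d-2) or in none (Mir344d-1, Mir344e, Mir344h-1 and Mir344h-2).

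**Figure D5:**
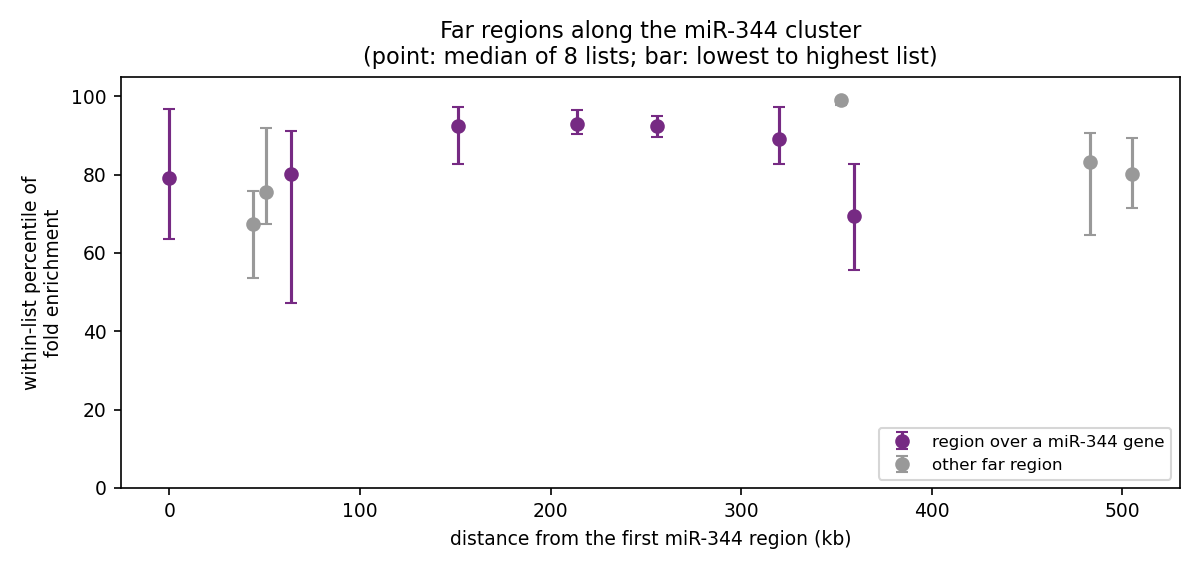
Within-list percentile of fold enrichment (vertical axis) of far regions along the miR-344 cluster, by distance from the first far region over a miR-344 gene (horizontal axis, kb). Points are medians of the 8 lists and bars run from the lowest to the highest list, and the 7 regions over miR-344 genes have medians of 69.5 to 93.0.

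Only 1 of the 7 was called. The region over Mir344d-3, by coordinate the first far region over a miR-344 gene, had folds of 6.83, 5.97 and 7.39 in GFP, 10.8, 11.5 and 10.0 with Ezh2, and 7.08 and 6.79 with Ezh2-Y726D, so that the Ezh2 lists lay above the other 5. The difference was 1.18 ± 0.184 (SE, adjusted p = 0.0117, limma) against GFP and 1.28 ± 0.206 (adjusted p = 0.00402) against Ezh2-Y726D. For the other 6 the adjusted p against GFP ran from 0.568 to 0.996 in Ezh2.

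None of the regions over the other microRNAs was called. The region over miR-137, at chr3:118433340-118434108, had folds of 4.10, 4.91 and 4.27 in GFP, 6.22, 5.60 and 5.51 with Ezh2, and 5.37 and 4.43 with Ezh2-Y726D (adjusted p = 0.0677 for Ezh2 against GFP, limma). The region over miR-129-2, at chr2:94241363-94242209, had a median percentile of 11.5. Over miR-802 it was 87.5, and over miR-667, in the imprinted domain of Rtl1, 72.2.

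Far regions with a promoter window of a non-coding gene were wider than the rest and similar in strength. Their median width was 1068 bp and their median percentile 72.1, against 869 bp and 71.1 in the 7616 far regions in no annotated gene. In all, 2216 far regions (22.2%) lay in a long non-coding RNA gene. Of the 316 with a window, 6 were called higher and 11 lower in Ezh2 against GFP (1.90% and 3.48%, where all regions tested had 1.61% and 2.86%). In Ezh2-Y726D against GFP these were 9 and 13 (2.85% and 4.11%, where all regions had 3.58% and 4.70%), and in Ezh2 against Ezh2-Y726D 27 and 28 (8.54% and 8.86%, where all regions had 7.09% and 7.01%).

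Values at the printed windows of called regions follow, with those at Gm33078, whose window is not printed. At Gm34684, chr17:9725584-9726496, folds were 6.10, 7.01 and 7.94 in GFP, 3.18, 4.15 and 3.49 with Ezh2, and 7.005 and 7.65 with Ezh2-Y726D, so the Ezh2 lists lay below the other 5 (−1.71 ± 0.231, SE, adjusted p = 0.00781 against GFP, limma). At Gm38791, chr6:37713893-37714853, the Ezh2-Y726D lists lay below the rest, with 5.02 and 4.85 against 8.95 or more in every other list (−1.71 ± 0.183, SE, adjusted p = 0.00229 against GFP, limma). Gm33078 was higher in Ezh2, with 7.24, 6.75 and 8.21 against 4.24, 4.07 and 6.12 in GFP (1.13 ± 0.272, SE, adjusted p = 0.0451, limma).

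At 1700019J19Rik, chr9:14089503-14090519, all comparisons were called. Folds were 5.24, 4.76 and 5.32 in GFP, 3.71, 3.06 and 3.54 with Ezh2, and 7.78 and 9.02 with Ezh2-Y726D, with no overlap between any groups. Ezh2 was lower than GFP (−1.07 ± 0.210, SE, adjusted p = 0.0238, limma), and Ezh2-Y726D was higher (1.03 ± 0.234, SE, adjusted p = 0.0266, limma), and Ezh2 differed from Ezh2-Y726D by −2.11 ± 0.234 (SE, adjusted p = 0.00104, limma).

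Most far regions showed no call. In 7260 of the 9988 (72.7%) no comparison of groups was called, and 2728 (27.3%) were called in at least 1. The share called in at least 1 comparison was not counted over all regions tested. At an unadjusted p under 0.05, 2656, 3289 and 3792 far regions differed in the 3 comparisons in the order given above. Over all 68278 regions tested these numbers were 13724, 16689 and 20105.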

How the data were processed

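Per the labels, reads were processed with cutadapt, Bowtie2, SAMtools, Picard, MACS2 and deepTools (versions not given in the sources used here) on GRCm38. The authors called peaks per sample. Each deposited list gives a fold enrichment (a ratio of pileup to local background at the summit), a −log10 p-value, a −log10 q-value and a score, 10 times that −log10 q. The lists give no read counts, so the depth is unknown and no counting limit is given for a fold. The lowest −log10 q was 1.31 to 1.38. Peak names carry tags of a quality filter and of duplicate removal.

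Starts were counted from 1. A region took the highest fold of its peaks in each list. Genes are RefSeq on GRCm38.p6. Normal scores of fold were tested with limma 3.58.1 (R 4.3.3) in all 8 samples without covariates, with Benjamini-Hochberg adjustment over 68278 regions, and the procedure was tested on simulated data. Class differences used exact sign-flip tests over lists. Named were, for each comparison and direction, the 3 far regions with the largest difference among called ones without overlap of groups, the 5 strongest, 3 widest and 3 farthest, 3 chains, 5 intervals, 10 nearest genes and the members of the gene lists. Other choices are said to be later. Members and lists were chosen with earlier results of these data known. Alternatives are given in the closing section. The genome sequence was not used, so sequences at summits are not printed. Results at a few named items are not reported here.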

Additional observations from a re-analysis of the deposited data

How the results depend on the processing

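The lists give no read depth, so no region without a peak can be called closed, and the 2 Ezh2-Y726D samples limit every comparison with them. Far regions numbered 6505 at more than 100 kb from genes, 2829 at more than 50 kb from genes of any type, 4916 where each list's peaks had to span 0.5 or more of the region, 17787 with a peak in at least 5 lists, and 10046 to 10585 with 1 sample left out. The share with another far region within 10 kb was 32.8% beyond 100 kb, 41.1% beyond 20 kb, 27.7% with genes of any type, 29.0% at a −log10 q of at least 5, 23.3% with 0.5 covered, 33.2% in lists of equal length, 52.4% with at least 5 lists, and 36.8% to 38.1% with 1 sample left out.

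The strength of far regions relative to gene ends stayed between −15.2 and −14.4 points with 1 sample left out, and the difference from gene bodies between 9.40 and 9.98. Relative to gene ends it was −27.9 points ranked by −log10 p and −9.07 points with 0.5 covered. Ranked by −log10 p the difference from gene bodies was 1.09 points (adjusted p = 0.293, exact test), and the cause was not tested. The difference in median percentile between Ezh2 and GFP turned to −1.40 points in lists of equal length (exact p = 0.1), and with 1 sample left out it ran from −0.898 to 2.98, turning negative without GFP replicate 2 (−0.507) or Ezh2 replicate 3 (−0.898).

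Calls came to 731 far regions (7.32%) when Ezh2 was compared with GFP, 1260 (12.6%) when Ezh2-Y726D was, and 2057 (20.6%) between both forms of Ezh2. Of all regions tested, 4.47%, 8.27% and 14.1% were called. In the same order the calls were 201, 424 and 654 with genes of any type (7.1%, 15.0% and 23.1% of far regions, with the same shares over all). With 0.5 covered they were 171, 389 and 730 (3.48%, 7.91% and 14.85%, where all regions had 1.90%, 4.73% and 9.90%). With at least 5 lists, where an absent peak took the lowest rank, they were 2554, 2954 and 5015 (14.4%, 16.6% and 28.2%, where all regions had 9.79%, 13.1% and 21.5%). Beyond 100 kb the first was 482 (7.41%, where all regions had 4.47%). With 1 sample left out they ran from 253 to 593, 292 to 1244 and 886 to 2018. The lowest were without GFP replicate 3 in the first and without Ezh2-Y726D replicate 1 in the others, and without Ezh2-Y726D replicate 2 the others were 412 and 920. There the lone Ezh2-Y726D sample is assumed to vary like the other groups. The first was also 424 without GFP replicate 1, 255 without GFP replicate 2, 396 without Ezh2 replicate 1 and 346 without Ezh2 replicate 3. These were 4.109%, 2.409%, 3.783% and 3.411% of far regions, where all regions had 2.343%, 1.303%, 2.291% and 1.948%. The 253 without GFP replicate 3 were 2.518%, where all regions had 1.657%. The second was 810 without GFP replicate 2 (7.652%, where all regions had 4.723%). Its highest count, 1244 without Ezh2 replicate 3, was 12.26%, where all regions had 7.85%. The 2018 of the third, without GFP replicate 1, were 19.55%, where all regions had 13.26%.

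The fit with the title number as a replicate block gave 525, 1125 and 1812 calls. These were 5.26%, 11.3% and 18.1% of far regions, where all regions had 3.15%, 6.94% and 11.7%. Numbers in the peak names of Ezh2-Y726D are 2 and 3 where the titles have 1 and 2. A replicate block by the peak-name numbers, an alternative chosen after seeing the data, gave 466, 782 and 1504. These were 4.67%, 7.83% and 15.1% of far regions, where all regions had 2.82%, 4.67% and 9.72%. Samples with the same title number had deviations from their group means that correlated at −0.0152 to 0.0490, and by peak-name number at 0.00269 to 0.0490, so neither set of numbers was taken to pair them. Of the regions named for a difference, none changed direction, and 8 of 268 values lost their call. Runs without a value for a named region are not counted there. The regions near Wac, Kdr, Slc22a8, Prkcq, Gm11232 and Gata3 had no value at a −log10 q of at least 5 or in equal-length lists. They also had none where each list's peaks had to span a set share of the region. Their calls were thus not tested under these settings, in which the region near Sox9 kept its calls.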
